A study of Mus musculus with 8 samples.

Results

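The genes described here, 50 in number, encode the machinery that shortens, decaps and degrades cytoplasmic mRNA, and proteins that bind AU-rich elements in mRNA. They were listed by name and role, with earlier results of these data known, and all 50 were found among the 22052 genes of the deposited table. By role they fall into the ZFP36 family (3 genes), subunits of the CCR4-NOT deadenylase (10), TOB and BTG proteins (4), PAN2, PAN3 and PARN (3), decapping and 5'-to-3' decay factors (11), the exosome and its nucleases (11), other binders of AU-rich RNA (5), and poly(A)-binding proteins with UPF1 (3). Liver RNA came from 8 male C57BL/6 mice aged 8 weeks, all injected with corn oil into the peritoneum. In 4 of them (dKO) floxed alleles of both Zfp36l1 and Zfp36l2 were homozygous and an Alb-Cre transgene was present. The other 4 (control) had the same homozygous floxed alleles without Cre, so that the Cre transgene itself differed between the groups along with the deletion. The albumin promoter drives Cre in hepatocytes, and by this design endothelial, stellate and immune cells of the liver should keep intact alleles. The state of the alleles was not examined in any cell type, bile duct cells included. Each library is 1 mouse, and the deposited values are normalised read counts, that is, reads per gene divided by 1 size factor per library.

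Most mRNAs are lost in steps: the poly(A) tail is shortened by the PAN2-PAN3 and CCR4-NOT deadenylases, and the body is then either decapped by DCP2 and digested from its 5' end by XRN1, or digested from its 3' end by the exosome. Proteins of the ZFP36 family bind AU-rich elements in 3' untranslated regions (UTRs) through tandem zinc fingers and recruit CCR4-NOT, while BTG and TOB proteins bring the same deadenylase to mRNAs through its catalytic subunits. In liver the family is known for limiting the mRNAs of inflammatory mediators and growth regulators.

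Between 15253827 and 19299556 gene reads stood behind each library, and a gene with 0 reads in a library lay below a floor of 3 counts (2.55 to 3.43 normalised read counts, counting error only). Hepatocyte markers were abundant in every library, with a summed level over 8 genes of 1165313 to 1212488 in dKO livers and 1139901 to 1258166 in control livers. That sum is mostly albumin (Alb), which was not called. Of the 8, the secreted carrier gene Ttr, the transcription factor gene Hnf4a and the receptor gene Asgr1 fell (to 54.9%, 74.9% and 73.7% of control, groups apart), changes as large as those of many genes described below, and Tat rose (to 129% of control, groups overlapping). Markers of some other cell types differed between the groups, beside shares of 21.2% higher and 17% lower among all tested genes. All 8 neutrophil markers and 8 of 9 monocyte and macrophage markers rose, with summed levels of 725 to 1036 and 10007 to 14269.6 in dKO livers, against 77.0 to 357 and 2890.4 to 7492 in control livers. All 5 bile duct markers (349 to 617 in dKO livers, 166 to 284 in control livers) and 4 of 7 stellate and fibroblast markers (9835 to 12749 in dKO livers, 3019 to 6597 in control livers) rose. Of 5 Kupffer cell markers 2 rose (5477 to 10494 in dKO livers, 4519.7 to 5639.7 in control livers), as did 2 of 6 endothelial markers, of which 1 fell, and 1 of 8 T and NK cell markers, while 3 of 5 B cell markers fell. The Kupffer cell, endothelial and B cell sums overlapped between the groups. The part of these marker changes in the results below was not tested. The neutrophil gene Ltf was at 0 in all control livers. On the first principal component (74.5% of the variance) control 4 lay at 43.3, against 67.7 to 76.5 for control livers 1 to 3 and -68.9 to -57.5 for dKO livers. Its monocyte, neutrophil, stellate, bile duct, hepatocyte and B cell sums were the highest of the controls, and its Kupffer cell sum was the lowest. In whole liver RNA, fewer cells of a type and less RNA per cell cannot be told apart.

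The letters TATTTAT, a core of the AU-rich elements that the ZFP36 family binds, stood in the annotated 3' UTR of 20 of the 50 genes (40%). They stood in 30.1% of 15424 tested genes with a 3' UTR, and in 33.5% of the 7209 whose 3' UTR length lay within 2-fold of the members' median of 1492 bases. The search read the mRNA strand of protein-coding transcripts and counted overlapping matches separately. The longer TTATTTATT stood in 7 of the 50 (14%), among them Zfp36, Zfp36l1 and Zfp36l2, and in 8.25% of all tested genes. By role the heptamer was found in 3 of 3 ZFP36 family genes, 6 of 10 CCR4-NOT genes, 5 of 11 decapping genes, 3 of 5 other AU-rich binders and 0 of 11 exosome genes. Of the 16 genes that fell in dKO livers 9 held it, the deleted Zfp36l1 and Zfp36l2 among them. Of the 4 that rose 2 held it, and of the 30 that did neither 9 held it, which is a description of sequence and not of binding. The share among all tested genes that fell was not computed, so these counts show no enrichment. Windows from genes that changed are shown to give the context of the element, with TATTTAT in capitals and 10 bases on each side, 5' to 3' on the mRNA strand (GRCm38, from GENCODE M21 transcripts). The first 2 come from the deleted genes themselves, the next 3 from genes that fell and hold the longer form, and the last 2 from genes that rose. Cnot2, Cnot3, Cnot7 and Tial1 also fell and held TATTTAT, but without the longer form, and their windows are not shown.
Zfp36l1 chr12:80108168-80108194 (minus strand): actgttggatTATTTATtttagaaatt
Zfp36l2 chr17:84184915-84184941 (minus strand): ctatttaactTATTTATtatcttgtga
Cnot6l chr5:96071162-96071188 (minus strand): gggaagagatTATTTATttttgtttcc
Edc3 chr9:57750554-57750580 (plus strand): gcttctagctTATTTATtggcttgcct
Elavl1 chr8:4285785-4285811 (minus strand): gaaaattattTATTTATttatttattt
Btg2 chr1:134077250-134077276 (minus strand): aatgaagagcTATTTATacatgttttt
Cnot6 chr11:49672370-49672396 (minus strand): tggtggtaatTATTTATgctttgagaa
Elavl1 held 8 copies, many of them overlapping, the highest number among the 50 genes, Cnot6l and each ZFP36 family gene held 3, and Btg2 held 1 without the longer form.

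The deleted genes both fell in dKO livers, Zfp36l1 to 16.5% and Zfp36l2 to 50.3% of the control mean, while Zfp36 did not pass the test. Zfp36l1 (chromosome 12, 80107754 to 80113013, minus strand, mm10) had 214, 213, 209.5 and 267 in dKO livers, against 1320.5, 1336, 1182 and 1642 in control livers, for mice 1 to 4 of each group. The highest dKO value lay far below the lowest control value (log2 change -2.60, SE 0.11, adjusted p = 1.6e-08 by limma). Zfp36l2 (chromosome 17, 84183931 to 84187947, minus strand) had 696, 794, 771 and 923 in dKO livers, against 1722, 1795, 997 and 1819.6 in control livers. Control 3 was the lowest control but still above every dKO liver (log2 change -0.96, SE 0.17, adjusted p = 0.000689 by limma). Zfp36, which encodes tristetraprolin, the founding member, had 2250.5, 2829, 1988.5 and 2416 in dKO livers, against 2912, 2688, 2338 and 3408 in control livers. Its groups overlapped (log2 change -0.26, SE 0.12, adjusted p = 0.123 by limma), and limma called it lower only without dKO 2 (adjusted p = 0.047) or without control 3 (0.0421), over a range of 0.0421 to 0.398 in all settings tried. The opposite-strand lincRNA Gm26669 shares 55.9% of the exon bases of Zfp36l1 and averaged 8.11 normalised read counts in dKO livers and 51.7 in control livers. No source used here says whether reads were counted by strand, so reads of these partners cannot be told apart.

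Per kilobase of exon, which allows levels of different genes to be set side by side, Zfp36 was the most abundant family member in both groups. Its level was 683 ± 102 normalised read counts per kb in dKO livers and 817 ± 129 in control livers (SD, n = 4 each, as for every mean below). Zfp36l1 stood at 75.5 ± 9.24 per kb in dKO livers and 458 ± 64.9 in control livers, and Zfp36l2 at 225 ± 26.7 and 449 ± 111. The sum of the 3 genes was 984 ± 115 per kb in dKO livers and 1724 ± 286 in control livers, so that 57.1% of the control sum was left, with ranges of 861 to 1111 in dKO livers and 1352 to 2047 in control livers. Zfp36 made up 69.3% ± 3.37 of the sum in dKO livers, against 47.5% ± 2.10 in control livers. Zfp36l1 made up 7.72% ± 0.929 in dKO livers, against 26.7% ± 1.85 in control livers. The share of Zfp36l2 was 23.0% ± 2.53 in dKO livers and 25.8% ± 3.68 in control livers, with overlapping ranges. Exon lengths are unions over all annotated transcripts, and no source used here states the position of the floxed exons, so reads left from a shortened transcript, from undeleted hepatocytes and from other cells cannot be told apart.

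**Figure D1:**
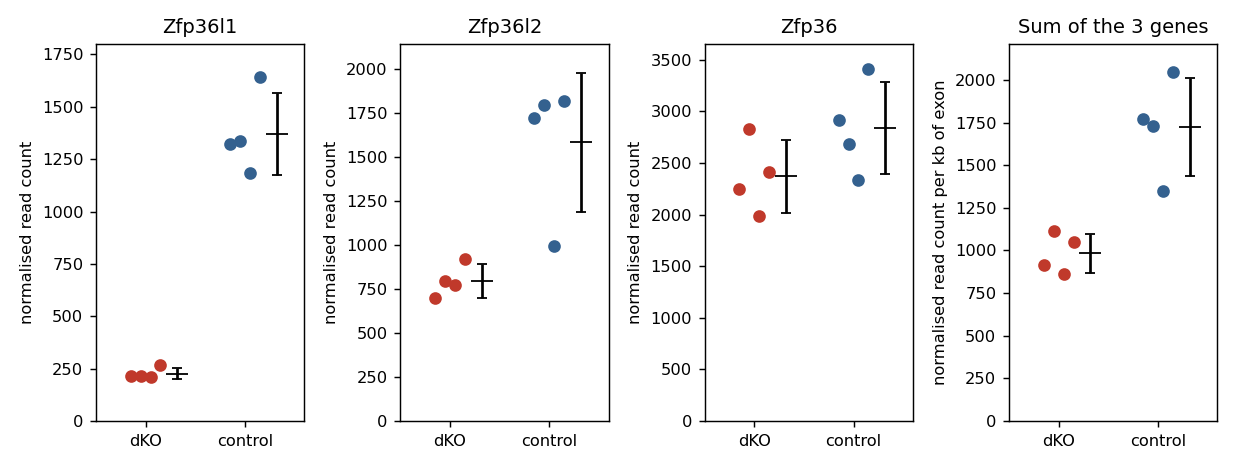
Normalised read counts of Zfp36l1, Zfp36l2 and Zfp36, and their sum per kb of exon, on linear axes; each point is 1 liver (dKO left, control right, mice 1 to 4 from left to right) and the bars give mean ± SD over 4 livers. The dKO points lie below all control points for Zfp36l1, Zfp36l2 and the sum, and overlap them for Zfp36.

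Over the whole set the changes were small and more often downward. Of the 50 genes, 4 rose (8%), 16 fell (32%) and 30 did neither (limma, Benjamini-Hochberg adjusted p under 0.05 over all genes tested), against 21.2% higher and 17% lower (38.2% in either direction) among all 20055 genes tested. Among the 9676 tested genes with a control mean inside the range of the 50 (68.7 to 4345 normalised read counts) the shares were 21.4% higher and 27.6% lower, so the members' share of falls lay near that of genes of like abundance, and their share of rises lay below it. Of the 50 genes, 4 had all dKO livers above the controls and 15 had all below, against 19.4% and 16.9% of all tested genes. Such shares were not computed for the abundance range, so these counts show no excess over genes of like abundance. The median log2 change was -0.10, against -0.08 in the abundance range and 0.03 over all tested genes. For 46 of the 50 genes (92%) the change was under 1.5-fold either way, as it was for 76.1% of the genes in the abundance range, and the 4 exceptions were Zfp36l1, Zfp36l2, Btg2 and Edc3. Without the deleted genes, 4 of 48 rose and 14 fell. The single livers were close to each other, with a median SD of log2 values over the members of 0.13 in dKO livers and 0.13 in control livers (0.15 and 0.14 in the abundance range). In order of level per kb, Tob1 was first in both groups at 1133 in dKO livers and 1213 in control livers, with Pabpc1 and Zfp36 at the next ranks. Btg2 was 4th in dKO livers and 30th in control livers, and the nuclease gene Dis3 (16.4 per kb in dKO livers and 16.8 in control livers), the decapping cofactor Dcp1b (12.8 in dKO livers and 10.8 in control livers) and Tia1 (14.5 in dKO livers and 10.7 in control livers) were the lowest.

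**Figure D2:**
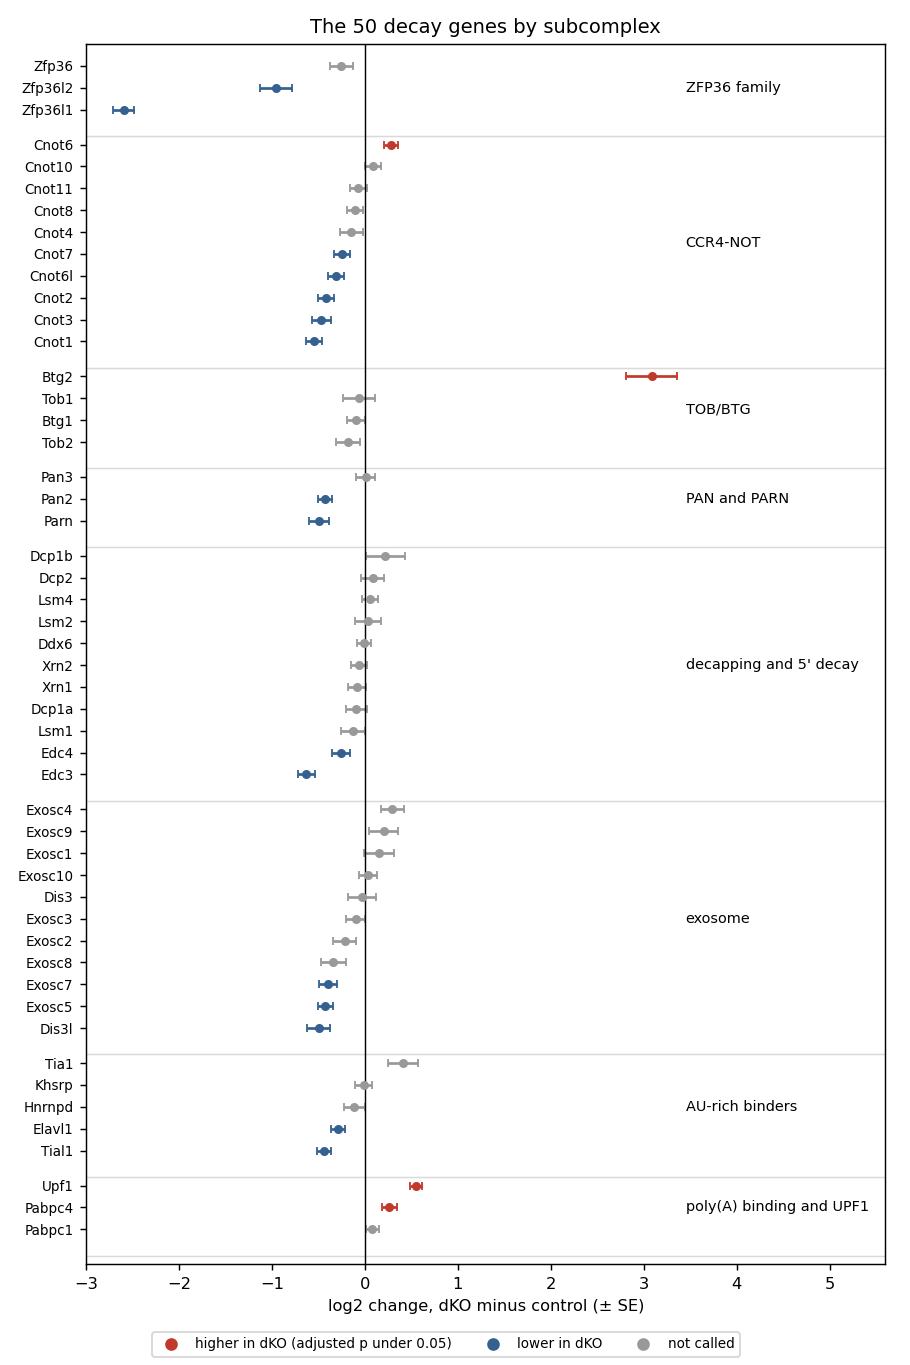
Log2 change of each of the 50 genes (dKO minus control, on the log2(value + 0.5) scale, bars ± SE, n = 4 livers per group), arranged by subcomplex and coloured by the limma call. Most points lie within 0.5 of zero, with Btg2 at 3.09 and Zfp36l1 at -2.60 far outside.

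In the CCR4-NOT complex 5 of 10 genes fell, 1 rose and 4 did neither. Among all tested genes 17% fell and 21.2% rose, and in the abundance range 27.6% and 21.4%. The genes that fell included the scaffold and its core partners. Cnot1, the scaffold on which the other subunits and the ZFP36 proteins dock, had 1579, 1445, 1896.5 and 1626 in dKO livers, against 2412, 2521, 2229 and 2346 in control livers. Every dKO liver lay below every control liver (log2 change -0.54, SE 0.09, adjusted p = 0.000318 by limma), and the dKO mean was 68.9% of control. Cnot2, which with CNOT3 forms the NOT module at the end of the scaffold, had 431, 417, 464 and 397 in dKO livers, against 529.9, 614, 594 and 549 in control livers. The groups were again apart (log2 change -0.42, SE 0.09, adjusted p = 0.00201 by limma), with the highest dKO value in dKO 3. Cnot3 had 271, 305, 312 and 352 in dKO livers, against 414, 434, 470.2 and 398 in control livers. It too was lower in each dKO liver than in any control (log2 change -0.47, SE 0.10, adjusted p = 0.00269 by limma).
The catalytic subunits went different ways. CNOT6 and CNOT6L are alternative exonucleases of the CCR4 type and are not found together in 1 complex. Cnot6 had 1024, 992, 1074 and 1012 in dKO livers, against 866, 888, 867 and 765 in control livers. It was higher in all dKO livers (log2 change 0.28, SE 0.07, adjusted p = 0.00996 by limma). Cnot6l had 805, 663, 762 and 714 in dKO livers, against 918, 989, 939 and 813 in control livers. It was lower in all dKO livers, by a narrow margin between dKO 1 and control 4 (log2 change -0.31, SE 0.09, adjusted p = 0.0133 by limma). CNOT7 and CNOT8 are the alternative exonucleases of the CAF1 type, which TOB and BTG proteins bind. Cnot7 had 360.0, 422, 410.5 and 374 in dKO livers, against 505, 462, 449 and 441 in control livers. The groups did not overlap, but the call was near the threshold (log2 change -0.25, SE 0.09, adjusted p = 0.044 by limma) and was lost without dKO 1 (0.104), dKO 4 (0.105), control 1 (0.127), control 2 (0.0803) or control 3 (0.0628). Cnot8 averaged 672 ± 37.4 in dKO livers and 726 ± 65.6 in control livers and was not called (adjusted p = 0.341 by limma). The E3 ligase gene Cnot4 averaged 209.6 ± 19.7 in dKO livers and 233 ± 33.1 in control livers. Cnot10 and Cnot11, whose products form a module at the other end of the scaffold, averaged 469 ± 22.2 in dKO livers and 443 ± 31.2 in control livers (Cnot10) and 339.7 ± 17.5 in dKO livers and 358 ± 31.6 in control livers (Cnot11). For these 3 genes the groups overlapped, and limma adjusted p ran from 0.383 to 0.592.

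Of the 4 TOB and BTG genes only Btg2 passed the test, beside 21.4% of genes higher and 27.6% lower in the abundance range. Its log2 change was the highest among the 50. Btg2, an antiproliferative gene of the early response whose product binds the CAF1 subunits, had 1266, 2017, 1581 and 2025 in dKO livers, against 124, 259, 143 and 339.7 in control livers (chromosome 1, 134075170 to 134079120, minus strand). The lowest dKO liver lay far above the highest control (log2 change 3.09, SE 0.27, adjusted p = 3.2e-06 by limma), and the dKO mean was 7.96-fold the control mean. Within the controls, mice 2 and 4 were above mice 1 and 3, and without control 4 the log2 change was 3.34. The summed neutrophil and monocyte markers were also higher in dKO livers, and control 4, with the highest Btg2 of the controls, had the highest sums of the controls as well (357 neutrophil and 7492 monocyte and macrophage). Control 2, with the next highest Btg2, had 149.8 and 3466, beside 77.0 and 3589.9 in control 1 and 90.5 and 2890.4 in control 3. Control 4 also had the highest stellate and fibroblast (6597) and bile duct (284) sums of the controls, and both sums were higher in dKO livers. Its hepatocyte (1258166) and B cell (237) sums were the highest of the controls too, and its Kupffer cell sum (4519.7) was the lowest. These sums overlapped between dKO and control livers. The part of any of these cells in the Btg2 result was not tested. Btg1, the close relative, averaged 1064 ± 152 in dKO livers and 1132 ± 46.9 in control livers (adjusted p = 0.456 by limma). Tob1 ranged from 2327 to 3039.9 in dKO livers and from 1866 to 3638 in control livers, and Tob2 from 1115 to 1329 in dKO livers and from 1141 to 1676 in control livers. Neither was called (limma adjusted p = 0.811 for Tob1 and 0.285 for Tob2), and the controls were the more scattered group for both.

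Outside CCR4-NOT, 2 of the 3 remaining deadenylase genes fell, beside 27.6% of genes in the abundance range. Pan2, the catalytic subunit that trims long tails, had 523, 529.8, 587 and 537 in dKO livers, against 738, 706, 749 and 737 in control livers. Both groups were tight and well apart (log2 change -0.43, SE 0.07, adjusted p = 0.000586 by limma). Pan3, the adaptor that holds PAN2 on the poly(A)-binding protein, averaged 488 ± 54.9 in dKO livers and 485 ± 49.2 in control livers (log2 change 0.01, limma adjusted p = 0.975). Parn, a separate poly(A)-specific ribonuclease, had 259, 281, 236 and 258 in dKO livers, against 322, 396, 337 and 409 in control livers. All dKO livers lay below all controls (log2 change -0.50, SE 0.11, adjusted p = 0.00281 by limma).

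Among decapping and 5'-to-3' decay genes 2 of 11 fell (18.2%), none rose and 9 were not called. The shares in the abundance range were 27.6% lower and 21.4% higher. Edc3, an enhancer of decapping that bridges DCP2 and DDX6, had 319, 293, 250.4 and 282 in dKO livers, against 449.8, 444, 447 and 427 in control livers. It had the largest fall among the 50 genes after the deleted pair (log2 change -0.63, SE 0.09, adjusted p = 0.000194 by limma), and the dKO mean was 64.7% of control. Its exons share 22.1% of their bases with the kinase gene Clk3 on the opposite strand, which averaged 331 in dKO livers and 542 in control livers. Edc4, the scaffold of the decapping complex, had 379, 387, 456 and 431 in dKO livers, against 532, 447, 481 and 516 in control livers. The groups overlapped at dKO 3 and control 2, and the call sat at the threshold (log2 change -0.26, SE 0.09, adjusted p = 0.0473 by limma). It was lost without a filter on low values (0.0514) and when any of dKO 1, 2 or 4 or control 1, 3 or 4 was left out (0.0641 to 0.129). The decapping enzyme gene Dcp2 averaged 382 ± 45.8 in dKO livers and 363 ± 54.9 in control livers (log2 change 0.08), its cofactor Dcp1a 199 ± 8.49 in dKO livers and 213 ± 26.7 in control livers, and Dcp1b 81.3 ± 21.1 in dKO livers and 68.7 ± 10.1 in control livers. The exonuclease Xrn1 averaged 367 ± 29.1 in dKO livers and 389.5 ± 34.5 in control livers, its nuclear relative Xrn2 779 ± 46.3 in dKO livers and 817.5 ± 73.2 in control livers, and the helicase Ddx6 2691 ± 177 in dKO livers and 2707 ± 138 in control livers. Of the genes of the LSM ring, which caps the 3' end of deadenylated mRNA, Lsm1 averaged 205 ± 15.1 in dKO livers and 226 ± 35.1 in control livers, Lsm2 203 ± 35.4 in dKO livers and 197 ± 18.6 in control livers and Lsm4 475 ± 32.7 in dKO livers and 458 ± 32.2 in control livers. For these 9 genes the groups overlapped and limma adjusted p ran from 0.452 to 0.935.

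In the exosome 3 of 11 genes fell (27.3%), near the 27.6% of genes in the abundance range, and none rose (21.4% in that range). Exosc5, a subunit of the barrel-shaped ring, had 413, 383, 368 and 396 in dKO livers, against 472, 541, 545 and 539 in control livers. Its groups were apart, with control 1 below the other controls (log2 change -0.43, SE 0.08, adjusted p = 0.00162 by limma). Exosc7, also of the ring, had 278, 316, 243 and 276 in dKO livers, against 372, 348, 358 and 382 in control livers. All dKO livers were lower (log2 change -0.40, SE 0.10, adjusted p = 0.00714 by limma). Dis3l, the exonuclease of the cytoplasmic exosome, had 312, 262, 373 and 295 in dKO livers, against 416, 501, 451 and 381 in control livers. The margin was narrow between dKO 3 and control 4 (log2 change -0.50, SE 0.12, adjusted p = 0.00624 by limma). Dis3, the mainly nuclear counterpart, averaged 127 ± 14.8 in dKO livers and 131 ± 21.8 in control livers (adjusted p = 0.895 by limma). Among the other ring genes Exosc8 averaged 153 ± 23.9 in dKO livers and 192 ± 15.1 in control livers (log2 change -0.34, limma adjusted p = 0.0643), which passed without dKO 2 (0.0379) and with quantile normalization (0.0131). Exosc9 averaged 157 ± 25.4 in dKO livers and 136 ± 19.3 in control livers (limma adjusted p = 0.344). Exosc4 averaged 319 ± 39.5 in dKO livers and 260.2 ± 39.5 in control livers (log2 change 0.30, limma adjusted p = 0.0858) and passed without control 3 (0.0261). Its exons share 19.8% of their bases with Oplah on the opposite strand. Of the cap subunits, Exosc2 averaged 151 ± 16.3 in dKO livers and 175 ± 12.7 in control livers (limma adjusted p = 0.19) and passed with quantile normalization (0.0311). Exosc1 averaged 145 ± 13.6 in dKO livers and 132 ± 26.7 in control livers, Exosc3 200.3 ± 13.1 in dKO livers and 215 ± 6.44 in control livers and the nuclear nuclease gene Exosc10 403 ± 26.0 in dKO livers and 394 ± 34.0 in control livers. These last 3 were not called (limma adjusted p from 0.473 to 0.808).

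Of the AU-rich binders outside the ZFP36 family 2 of 5 fell and none rose, beside 27.6% and 21.4% of genes in the abundance range. Elavl1, which encodes HuR, a protein that stabilises AU-rich mRNAs, had 512, 565, 614 and 551 in dKO livers, against 713, 683, 677 and 663 in control livers. Every dKO liver was below every control (log2 change -0.29, SE 0.08, adjusted p = 0.0117 by limma). Tial1, whose product TIAR represses translation of AU-rich mRNAs, had 664, 748, 791 and 723 in dKO livers, against 991, 986, 996 and 982 in control livers. The controls were close together and the dKO livers were all lower (log2 change -0.44, SE 0.07, adjusted p = 0.000531 by limma). Its relative Tia1 had 158, 232, 259.7 and 264 in dKO livers, against 166, 152, 188 and 168 in control livers. In 3 of 4 dKO livers Tia1 was above every control, and dKO 1 lay below 3 of the controls (log2 change 0.41, SE 0.16, adjusted p = 0.0602 by limma). Tia1 passed the threshold without dKO 1 (0.0031), with robust variances (0.0495) and with count tests on recovered reads (edgeR 0.0373, DESeq2 0.0354). Hnrnpd, which encodes the decay-promoting AUF1, averaged 669.8 ± 88.3 in dKO livers and 726 ± 102 in control livers, and Khsrp, which encodes the decay factor KSRP, averaged 1022 ± 101 in dKO livers and 1031.5 ± 89.7 in control livers. Neither was called (limma adjusted p = 0.477 for Hnrnpd and 0.924 for Khsrp).

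Of the poly(A)-binding genes and Upf1, 2 of 3 rose and none fell, beside 21.4% and 27.6% of genes in the abundance range. Upf1, the helicase at the centre of nonsense-mediated decay, had 1945, 1953, 2017.5 and 2058 in dKO livers, against 1429, 1350.2, 1396 and 1289 in control livers. The groups were far apart relative to their spread (log2 change 0.55, SE 0.07, adjusted p = 3.7e-05 by limma), and the dKO mean was 1.46-fold the control mean. Pabpc4, a cytoplasmic poly(A)-binding protein, had 1049, 891, 927 and 985 in dKO livers, against 834, 849, 809.9 and 719 in control livers. All dKO livers were above all controls (log2 change 0.26, SE 0.08, adjusted p = 0.0243 by limma), but the call was lost without dKO 1 (0.0666), dKO 4 (0.0615) or control 4 (0.0694). Pabpc1, the main cytoplasmic poly(A)-binding protein, averaged 4595 ± 243 in dKO livers and 4345 ± 134 in control livers (adjusted p = 0.392 by limma). With quantile normalization it was called higher (log2 change 0.26, limma adjusted p = 0.00786).

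**Figure D3:**
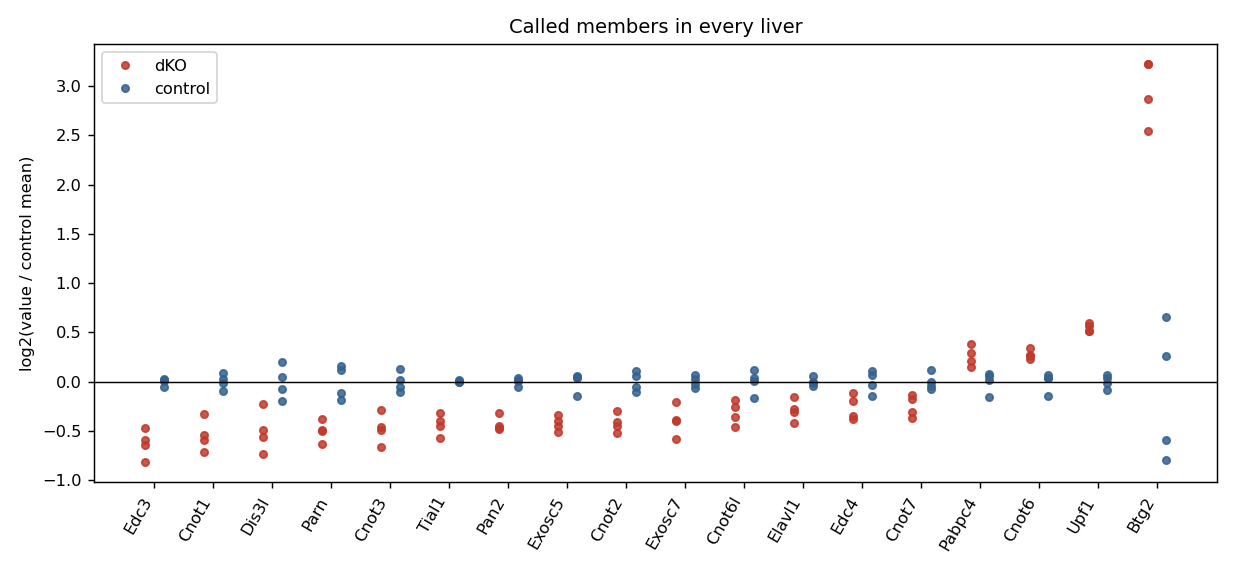
Each liver's value as log2 of its ratio to the control mean of that gene, for the 18 called genes other than Zfp36l1 and Zfp36l2; dKO livers are drawn left of control livers for each gene. The groups are apart for all of these genes except Edc4.

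Because several subunits exist as alternative paralogs, their balance was compared as a log2 ratio within each liver, which does not depend on how the library was scaled. Each of 11 pairs was tested by exact permutation of the group labels (70 assignments, 2-sided, smallest possible p = 0.0286), and p was adjusted over the pairs. The ratios are of reads and not per kb, so only their differences between groups are compared. For 7 pairs the groups did not overlap (exact p = 0.0286, adjusted p = 0.0449 each). In 2 of these a deleted gene is set against Zfp36, so that the genotype fixes the outcome, and adjusted over the other 9 pairs alone the remaining 5 had an adjusted p of 0.0514 each, above the threshold of 0.05. The log2 ratio of Btg1 to Btg2 was -0.33, -0.94, -0.78 and -0.66 in dKO livers, against 3.21, 2.06, 2.95 and 1.80 in control livers. All dKO livers lay far below all controls (difference -3.18). Per kb of exon, Btg1 was 0.329 ± 0.0607 times Btg2 in dKO livers and 3.21 ± 1.45 times Btg2 in control livers. The log2 ratio of Cnot6 to Cnot6l was 0.35, 0.58, 0.49 and 0.50 in dKO livers, against -0.08, -0.15, -0.12 and -0.09 in control livers. It was higher in every dKO liver (difference 0.59). Per kb Cnot6 was 2.18 ± 0.146 times Cnot6l in dKO livers and 1.45 ± 0.0323 times in control livers. For Tia1 over Tial1 the log2 ratio was -1.70 ± 0.26 in dKO livers and -2.55 ± 0.12 in control livers (difference 0.85), and all dKO livers, dKO 1 included, lay above the controls. For Dis3 over Dis3l it was -1.28 ± 0.30 in dKO livers and -1.75 ± 0.10 in control livers (difference 0.47). For Pabpc1 over Pabpc4 it was 2.26 ± 0.05 in dKO livers and 2.44 ± 0.09 in control livers (difference -0.18). Against Zfp36, the deleted genes had differences of -2.34 for Zfp36l1 and -0.70 for Zfp36l2. With 1 liver left out (35 assignments, smallest exact p again 0.0286) the exact unadjusted p rose above 0.05 for Dis3 over Dis3l without any 1 control (0.0857 to 0.114), for Tia1 over Tial1 without control 1, 2 or 4 (0.0571), for Pabpc1 over Pabpc4 without dKO 1, 2 or 4 (0.0571 to 0.0857) and for Zfp36l2 over Zfp36 without any 1 dKO liver (0.0571). In each of these comparisons the groups, then of unequal size, were still apart. With all livers the groups overlapped for Cnot7 over Cnot8 (difference -0.14, exact p = 0.257), Tob1 over Tob2 (0.12, exact p = 0.657), Dcp1a over Dcp1b (-0.31, exact p = 0.314) and Xrn1 over Xrn2 (-0.02, exact p = 0.857).

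**Figure D4:**
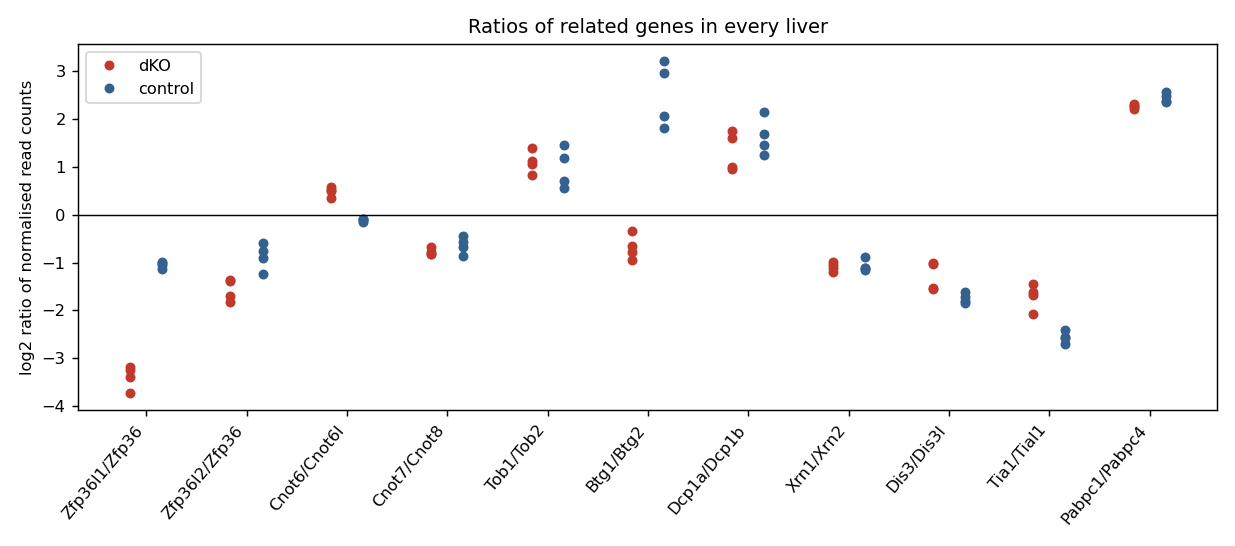
Log2 ratio of normalised read counts for 11 pairs of related genes in each liver (not corrected for exon length); dKO livers are drawn left of control livers. The groups are apart for 7 pairs, most widely for Btg1/Btg2 (difference -3.18), and overlap for the other 4.

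Other genes of these pathways were taken from a list of 81 chosen by role, of which 74 were in the table and tested. Of the 74, 8 rose (10.8%), 22 fell (29.7%) and 44 did neither, with a median log2 change of -0.10. The shares were 21.2% higher and 17% lower among all tested genes, and 21.4% and 27.6% in the abundance range of the 50. Control means of the 74 ran from 4.48 to 4034 normalised read counts, so some of them lay below that range. Noct, which encodes nocturnin, a relative of the CCR4 nucleases with circadian expression, averaged 2246 ± 315 in dKO livers and 299 ± 178 in control livers (log2 change 3.05, SE 0.28, adjusted p = 3.7e-06 by limma). Btg3, a further BTG gene, averaged 278 ± 30.2 in dKO livers and 61.8 ± 19.0 in control livers (log2 change 2.20, SE 0.19, adjusted p = 3.1e-06 by limma), while Angel1, another gene of the CCR4-like nuclease family, fell (log2 change -0.90). With these, 2 of the 5 genes listed under other deadenylation rose and 1 fell. Whether their products shorten poly(A) tails was not tested. Of 12 other decapping genes 1 rose and 4 fell, among them Pnrc2, which links UPF1 to decapping (log2 change -0.59), Pnrc1 (-0.47, with overlap between the groups) and the scavenger enzyme Dcps (-0.73).
Of 13 exosome cofactors 1 rose and 4 fell, among them Zcchc7 of the nuclear TRAMP complex (-0.52), the SKI complex gene Wdr61 (-0.35) and C1d (-0.25, a call lost without dKO 3, control 2 or control 3, at limma adjusted p of 0.0568 to 0.0738). Of 9 nonsense-mediated decay genes 2 fell, Upf3b (-0.63) and the endonuclease gene Smg6 (-0.28), and none rose. The call of Smg6 was lost without dKO 2, dKO 4, control 1 or control 3 (limma adjusted p of 0.0534 to 0.0736). In the microRNA silencing group of 7, Ago1 (-0.63) and Ago4 (-0.81) fell and Ago2, the slicing Argonaute, rose (0.50). Of 18 other genes for 3' UTR binders 2 rose and 5 fell, and the 3 named here by smallest adjusted p all encode cytoplasmic polyadenylation factors. Cpeb3, of the same family, was not called (log2 change -0.03, adjusted p = 0.893 by limma). Cpeb2 averaged 541 ± 94.6 in dKO livers and 1888 ± 294 in control livers (log2 change -1.81, SE 0.14, adjusted p = 8.2e-07 by limma), Cpeb4 fell by 0.81 on the log2 scale, and Cpeb1 rose to 197 ± 7.20 in dKO livers, against 81.2 ± 8.47 in control livers (log2 change 1.28, SE 0.13, adjusted p = 7.7e-06 by limma).  Of 6 other poly(A)-binding genes 1 rose, Paip1 (0.33), which promotes translation, and 4 fell, among them Paip2b, an inhibitor of poly(A)-binding proteins (-0.60), and the nuclear Pabpn1 (-0.64). None of the 4 genes of the p38-MK2 kinase axis, which phosphorylates ZFP36 proteins, passed the test. Mapk14, with the highest mean normalised read count of them (not per kb), averaged 1870.5 ± 62.1 in dKO livers and 1757 ± 114 in control livers.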

How the data were processed

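The submitters' processing notes list build mm10 and the tools DESeq2, featureCounts 1.5.0-p3, HISAT2 2.0.5 and fastp, without their roles. The annotation and any strand setting are unstated there. The table is named for FPKM, but in each library 100% of the deposited signal values are whole multiples (within 0.001) of 1 step, so they are read counts that the authors divided by a size factor. The step of dKO 1 (1.006) lies too near 1 for a further check of whole reads, and its reads rest on this match alone. Genes averaging at least 0.5 over the 8 livers (20055) entered a 2-sided limma test (version 3.58.1, trended eBayes, under R 4.3.3) on log2(value + 0.5), with Benjamini-Hochberg adjustment over all of them. Fold changes on this scale understate low genes. Alternatives included edgeR 4.0.16 and DESeq2 1.42.0 on recovered reads; scripts were tested on simulated data. Symbols matched 21796 identifiers. Exon lengths and 3' UTRs came from GENCODE M21 (GRCm38). The members, lists, pairs and tests were chosen with earlier results of these data known. Values in every liver are given for the ZFP36 family and the called members, and up to 3 called genes per group of the other list by smallest adjusted p. The labels give no batch.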

Additional observations from a re-analysis of the deposited data

Results flagged for a closer look

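Single livers stood apart from the other 3 of their group by Dixon's criterion in 5 of 100 groups of 4 values, and chance flags about 1 group in 20. Zfp36l1 in dKO 4 was 267, against 209.5 to 214 in the other dKO livers. Zfp36l2 in control 3 was 997, against 1722 to 1819.6 in the other controls, and without that liver the log2 change of Zfp36l2 was -1.17. Xrn1 in dKO 3 was 410.5, against 347 to 357. Lsm4 in dKO 1 was 524, against 456 to 461. Exosc5 in control 1 was 472, against 539 to 545 in the other controls, and without that liver its log2 change was -0.47.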

How the results depend on the processing

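Under the 18 other settings tried, the 50 genes gave 3 to 5 rises (4 as reported) and 14 to 18 falls (16 as reported), with a median log2 change of -0.13 to -0.08. The other pathway genes gave 6 to 8 rises and 18 to 24 falls. Zfp36l1 (-2.68 to -2.50) and Zfp36l2 (-1.17 to -0.88) were called lower in all of them. Of the 20 called members, 17 were called in every setting, all except Cnot7, Edc4 and Pabpc4, and no called member changed direction. Among the 30 uncalled, 24 were uncalled throughout, all except Zfp36, Exosc2, Exosc4, Exosc8, Tia1 and Pabpc1. Quantile normalization moved the median of all genes to -0.08, against 0.03, and gave 5 rises and 18 falls among the members, beside 18.1% and 21.5% of all genes. Mice are numbered 1 to 4 in both groups, but deviations of same-numbered mice from their group means correlated at only -0.07 to 0.08, so the numbers were not taken as pairs. With the mouse number as a replicate block, 4 members rose and 14 fell, Zfp36l1 and Zfp36l2 kept log2 changes of -2.60 and -0.96, the median change was -0.10, and 7 and 22 other pathway genes were called, with Cnot7 (adjusted p = 0.0823) and Edc4 (0.0705) lost. The 7 paralog ratios with exact p = 0.0286 kept their sign when any liver was left out, but for 4 of them the exact p rose above 0.05 without some livers. The groups, then of unequal size, were still apart in those cases. Over the 8 comparisons without 1 liver their differences ran from -0.82 to -0.61 for Zfp36l2 over Zfp36, 0.37 to 0.56 for Dis3 over Dis3l, 0.77 to 0.97 for Tia1 over Tial1 and -0.21 to -0.14 for Pabpc1 over Pabpc4. Adjusting over the 9 pairs without a deleted gene, a choice made after seeing the data, left 5 differences above the threshold at an adjusted p of 0.0514 (0.59 for Cnot6 over Cnot6l, -3.18 for Btg1 over Btg2, 0.47 for Dis3 over Dis3l, 0.85 for Tia1 over Tial1 and -0.18 for Pabpc1 over Pabpc4). At these depths the members averaged 68.7 or more normalised read counts, and the smallest log2 change called was -0.25.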
